A study of Mus musculus with 2 samples.

Results

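The replication-dependent histone genes encode the linker histone H1 and the core histones H2A, H2B, H3 and H4 that package DNA newly made in S phase. They were taken as the gene rows whose mouse symbol of the GRCm38 period begins with Hist1h, Hist2h, Hist3h or Hist4h and is not marked as a pseudogene by the ending -ps. This left 66 genes of 43346 gene rows. They comprised 6 H1, 20 H2A, 15 H2B, 12 H3 and 13 H4 genes. The Hist1 cluster on chromosome 13 held 54 of them, the Hist2 cluster on chromosome 3 held 9, the Hist3 cluster on chromosome 11 held 2, and Hist4h4 lay alone on chromosome 6. Hist1h2aj and Hist1h2al fit the symbol rule, although the annotation calls both pseudogenes.

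The neural tube, from which brain and spinal cord develop, was taken from B6NCrl mice at embryonic day 14.5 and its total RNA sequenced. Both libraries, each from 10 ng of RNA with spike-in RNA added, belong to a single group. Replicate 1 came from pup 1 of pregnant female 1 and replicate 2 from pup 1 of pregnant female 2, each labelled as a single neural tube, although the labels also give pooled male and female as the sex. No contrast between conditions could be tested, so levels are given per library and ratios describe these 2 libraries, with no p-value.

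Replication-dependent histone genes are short, mostly lack introns and are copied many times over. Their messages usually end in a conserved stem-loop in place of a poly(A) tail, and the stem-loop binding protein, encoded by Slbp, acts on it in processing, translation and decay. Their RNA accumulates in S phase and is lost when replication ends. Replacement variants such as H3.3 are made outside S phase from ordinary polyadenylated messages. In neural tissue replication-dependent genes are used by dividing progenitors, whereas postmitotic neurons rely on the replacement variants.

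The stem-loop is the sequence that sets these messages apart, so it was searched for in the GENCODE M21 transcripts (GRCm38). The match was a 6-base stem beginning with GG, a loop beginning with TTT and the reverse complement of the stem, 16 bases in all. Of 58797 protein-coding transcripts, 95 held a match (0.162%). Among the genes' 71 transcripts in the deposited tables, 43 held one and 28 did not; a missing match says only that these letters are not in the annotated transcript. The sites below are written 5′ to 3′ in the DNA alphabet with up to 5 bases on each side, and capitals mark the 16 bases of stem and loop.
Hist1h2ap, chr13:21833026-21833049, minus strand: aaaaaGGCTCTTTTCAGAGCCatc
Hist3h2ba, chr11:58949344-58949369, plus strand: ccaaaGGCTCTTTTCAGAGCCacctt
Hist3h2a, chr11:58955167-58955192, plus strand: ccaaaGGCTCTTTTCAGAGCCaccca
Hist1h4d, chr13:23581945-23581970, plus strand: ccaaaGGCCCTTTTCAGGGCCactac
Hist2h4, chr3:96262934-96262959, minus strand: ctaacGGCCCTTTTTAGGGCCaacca
Hist1h1c, chr13:23739507-23739532, plus strand: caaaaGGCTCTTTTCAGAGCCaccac
Hist1h1t, chr13:23696520-23696545, plus strand: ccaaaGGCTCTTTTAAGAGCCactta
Hist2h2ac, chr3:96220413-96220438, minus strand: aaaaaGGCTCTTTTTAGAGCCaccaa
The letters of the stem went with the histone type. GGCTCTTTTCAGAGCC occurred in 24 genes of H1, H2A, H2B and H3 and in no H4 gene. The H4 genes with a match carried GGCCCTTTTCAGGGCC (7 genes), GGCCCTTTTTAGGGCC (2 genes) or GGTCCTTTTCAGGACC (2 genes). The 4 bases of the loop, TTTC in most genes, were TTTA in the 6 genes with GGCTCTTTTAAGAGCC, among them the testis H1 gene Hist1h1t.

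Total expected counts were 33360108 in replicate 1 and 26025302 in replicate 2, which set the precision of every value. The neuron markers summed to 4354 TPM (a level scaled by transcript length and by the library's total) in replicate 1 and 4122 TPM in replicate 2. The progenitor markers summed to 2209 and 2400 TPM, most of it from Fabp7 at 1772 and 1812 TPM. Sox2, at 8.43 and 13.4 TPM, and Nes, at 8.43 and 13.2 TPM, were lower in replicate 1. So were Vim at 378 and 501 TPM and Hes5 at 32.3 and 49.1 TPM, whereas Pax6 was nearly level at 10.65 and 10.9 TPM. All 6 neuron markers, 6 progenitor markers and 4 Hox genes of the spinal cord passed 1 TPM in both libraries. The libraries stood apart in non-neural tissue. The 5 meninges and fibroblast markers summed to 43.7 TPM in replicate 1 and 974 TPM in replicate 2, and the 5 sensory ganglion markers to 2.35 and 145 TPM. No marker on either list was at 0 in either library.

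Of the 66 histone genes, 29 reached 1 TPM in both libraries, 5 in only 1 of them and 32 in neither. For comparison, 34.7% of all gene rows and 60.8% of protein-coding genes reached 1 TPM in both libraries. The genes together summed to 603 TPM in replicate 1 and 779 TPM in replicate 2 (691 ± 124 TPM, mean ± SD, n = 2), which was 0.0655% and 0.0826% of the TPM of all gene rows. In expected counts they took 7551 and 7073 reads. The median gene among them stood at 0.758 TPM, against 5.41 TPM for the median of 21474 protein-coding genes. In bulk tissue, fewer cells with a message, less message per cell and poorer capture of messages without a poly(A) tail cannot be told apart.

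Most of the RNA came from few genes. The single highest gene, Hist1h2ap, held 35.8% of the summed TPM in replicate 1 and 40.7% in replicate 2. The 5 highest held 77.4% ± 0.279, and the 10 highest held 89.2% ± 0.372 (SD, n = 2). The order of the genes was much alike in the 2 libraries, with a Spearman rho of 0.864 over the 66 genes, which share each library's depth and annotation.

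**Figure D1:**
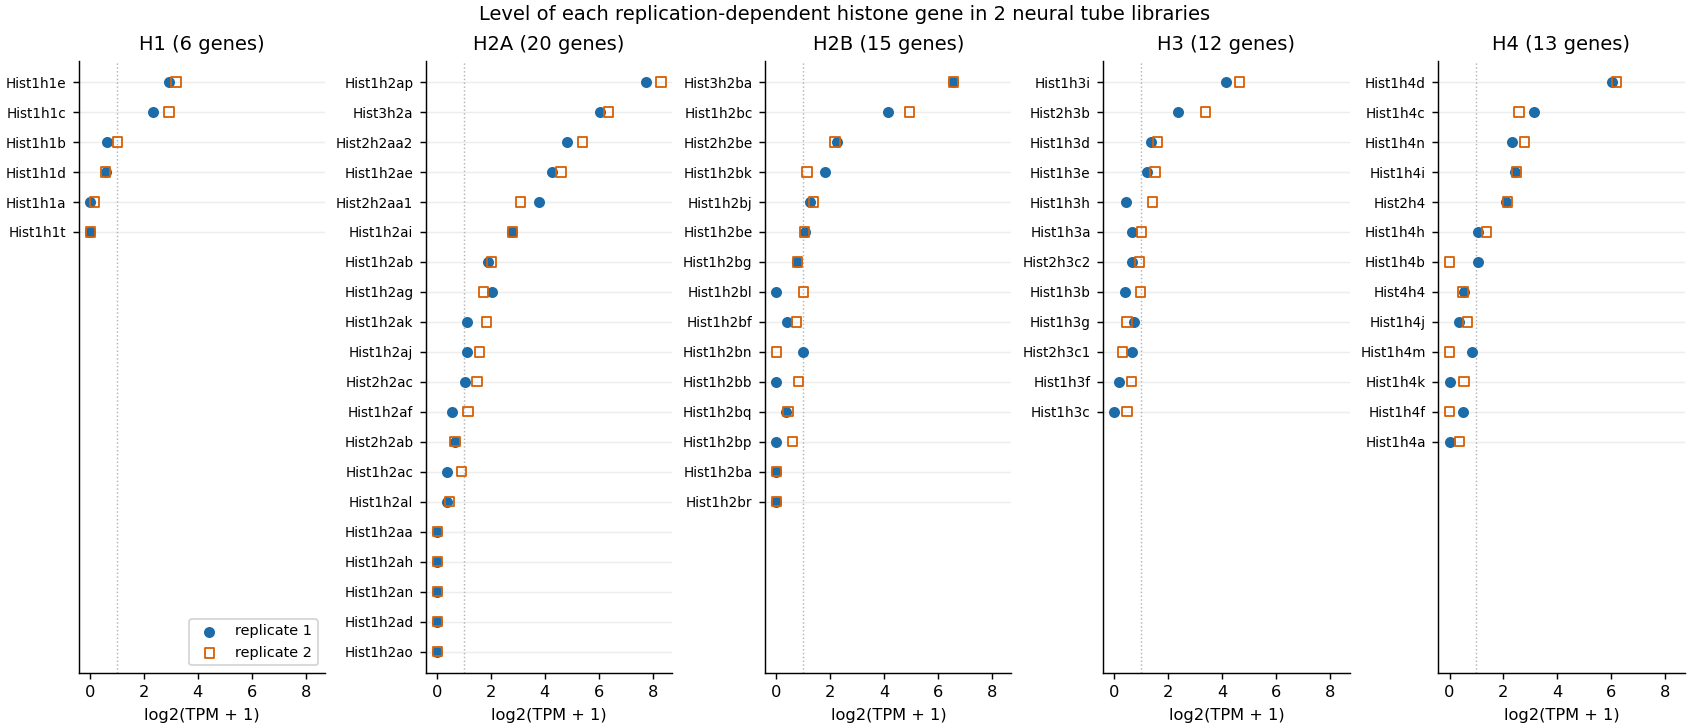
Level of each of the 66 genes as log2(TPM + 1), in 1 panel per histone type, with replicate 1 as filled circles and replicate 2 as open squares; the dotted line marks 1 TPM. Each type has a few genes well above the rest, such as Hist1h2ap at 216 and 317 TPM, and a tail at or near 0.

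H2A genes carried most of the signal. Summed over its 20 genes, H2A stood at 356 TPM in replicate 1 and 490 TPM in replicate 2, or 61.0% ± 2.72 of the total. H2B followed with 120 and 135 TPM (18.6% ± 1.80), then H4 with 88.6 and 94.5 TPM (13.4% ± 1.80). H3 had 26.8 and 43.2 TPM (5.00% ± 0.782), and H1 had 11.8 and 16.4 TPM (2.04% ± 0.104). This order, H2A, H2B, H4, H3 and H1, was the same in both libraries, and the ranges of neighbouring types did not overlap. The size of the H2A share rests on Hist1h2ap: without that gene it was 36.8%, still the highest, with H2B at 30.1%. The nucleosome itself holds its 4 core histones in equal number.

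**Figure D2:**
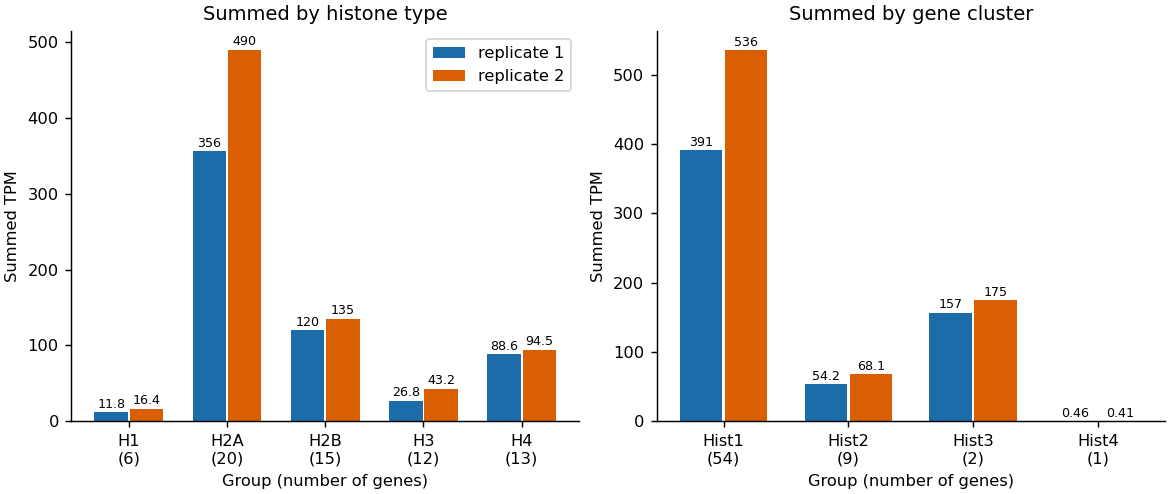
Summed TPM of the genes of each histone type (left) and of each gene cluster (right), with 1 bar per library and the number of genes in brackets. H2A stood at 356 and 490 TPM, far above H3 at 26.8 and 43.2 TPM, and the 2 Hist3 genes at 157 and 175 TPM exceeded the 9 Hist2 genes at 54.2 and 68.1 TPM.

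Among the H2A genes, which encode a core histone of the outer dimers, Hist1h2ap (chr13:21833026-21833507, minus strand) had 216 TPM in replicate 1 and 317 TPM in replicate 2. It made up 60.7% and 64.7% of the H2A sum and ranked 550 of 43346 gene rows. Hist3h2a (chr11:58954685-58956830) had 64.6 and 80.8 TPM. Hist2h2aa2 (chr3:96239749-96240276) followed with 27.6 and 40.8 TPM, and Hist1h2ae with 18.4 and 23.2 TPM. These 4 genes kept their order in both libraries, and the ranges of neighbours did not overlap. In all, 11 of the 20 H2A genes reached 1 TPM in both libraries and 5 had no count in either.

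The Hist1h2ap value depends on how reads were split between near-identical copies. Windows of 100 bases were slid along each gene's M21 transcripts, and 353 of 383 windows of Hist1h2ap (92.2%) occurred with the same letters in another gene, most often Hist1h2ao. Hist1h2ao had 0 counts in both libraries, but its deposited interval reached 4.59 TPM in replicate 1 and 10.2 TPM in replicate 2. The split between the 2 genes is therefore uncertain, while 30 windows were found in Hist1h2ap alone. The deposited interval of Hist1h2ap itself ran from 196 to 219 TPM in replicate 1 and from 283 to 316 TPM in replicate 2. Its replicate 2 level of 317 TPM lay just above that interval. Hist1h2ap and Hist1h2ao together had 1678 counts in replicate 1 and 1816 in replicate 2.

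The same held for the duplicated H2A pair of the Hist2 cluster. Hist2h2aa2 shared all of its windows and Hist2h2aa1 88.3%, both of them also with Gm20634, an annotated gene model at 0.35 and 0.98 TPM. Hist2h2aa1 had 12.6 TPM in replicate 1 and 7.46 TPM in replicate 2, the opposite direction to Hist2h2aa2. Taken as 1 sum, the pair had 40.2 and 48.3 TPM.

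The H2B genes were led by Hist3h2ba (chr11:58948920-58949533), with 92.4 TPM in replicate 1 and 93.9 TPM in replicate 2. These levels lay within 2 TPM of each other, and only 4.85% of its windows were shared, with Hist3h2bb-ps, a pseudogene left out by the symbol rule. Hist1h2bc came next with 16.6 and 29.8 TPM, and its deposited intervals did not overlap between the libraries. Hist2h2be, a long-transcript H2B gene with no shared window, had 3.78 and 3.52 TPM. Hist1h2bk had 2.45 and 1.20 TPM. Of the 15 H2B genes, 6 reached 1 TPM in both libraries, and Hist3h2ba alone made 73.3% ± 5.33 of their sum.

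Of the H4 genes, which encode a core histone of the inner tetramer, Hist1h4d (chr13:23581598-23582735) had 65.0 TPM in replicate 1 and 72.3 TPM in replicate 2. It gave 74.9% ± 2.20 of the H4 sum and shared no window with any other gene. Windows count only exact matches, here in an M21 transcript of 1138 bases, against 393 bases in the deposited tables. Whether reads were split between this gene and similar copies was not tested. Hist1h4c had 7.84 and 4.97 TPM, Hist1h4n 3.96 and 5.87 TPM, and Hist1h4i 4.38 and 4.63 TPM. Their order differed between the libraries. Hist1h4n shared 80.7% of its windows, mainly with Hist1h4m. Hist2h4 had 3.32 and 3.45 TPM with no shared window, and the lone Hist4h4 had 0.46 and 0.41 TPM from 26 and 17 counts.

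The H3 genes were low. Hist1h3i (chr13:21782960-21783370) led with 16.6 TPM in replicate 1 and 24.0 TPM in replicate 2, from 105 and 112 counts. Hist2h3b had 4.16 and 9.34 TPM, Hist1h3d 1.53 and 2.00 TPM, and Hist1h3e 1.33 and 1.84 TPM. Each of the 4 was higher in replicate 2 on the TPM scale. The remaining Hist2 copies, Hist2h3c2 (0.57 and 0.89 TPM) and Hist2h3c1 (0.57 and 0.24 TPM), share sequence with Hist2h3b, and all windows of Hist2h3c1 were shared with another gene. As 1 sum the 3 Hist2 H3 genes had 5.30 and 10.5 TPM.

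The linker histone genes had the lowest summed TPM of the 5 types. Their median level was 0.52 TPM in replicate 1 and 0.77 TPM in replicate 2. The medians were 0.70 and 0.76 TPM for H2B and 1.07 and 0.58 TPM for H4. The order of these medians therefore differed between the libraries. Hist1h1e (H1.4) had 6.69 TPM in replicate 1 and 8.14 TPM in replicate 2, and Hist1h1c (H1.2) had 4.10 and 6.63 TPM. Only these reached 1 TPM in both libraries among the 6 H1 genes. Hist1h1b (H1.5) had 0.54 and 1.04 TPM and Hist1h1d (H1.3) 0.50 TPM in each. By shared windows, H1 genes were less alike than the core histone genes. The median share was 0.4% over H1 genes, against 19.0% over H4, 40.1% over H2B, 49.8% over H3 and 64.5% over H2A genes.

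Copies with no assigned counts were found in several types. Hist1h1t, Hist1h2aa, Hist1h2ah, Hist1h2an, Hist1h2ad, Hist1h2ao, Hist1h2ba and Hist1h2br had 0 counts in both libraries. Counting error alone allows up to 3 counts per library there. Hist1h1t, Hist1h2aa and Hist1h2ba are known from the testis, and Hist1h1t and Hist1h2aa had no shared window. Of the 8 genes, 5 shared more than 50% of their windows with other genes. For those, the floor does not cover the split of reads between copies. The deposited interval of Hist1h2ao, for example, reached 4.59 TPM in replicate 1 and 10.2 TPM in replicate 2. The floor, like the counting intervals given with ratios below, covers counting error only, and amplified reads are not independent molecules.

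The deposited tables give an interval for each TPM value, whose level is not stated. It spanned more than 2-fold in at least 1 library for 52 of the 66 genes. Of the 29 histone genes averaging 10 counts or more, it did so for 15 (51.7%), against 22.1% of 17623 gene rows above the same limit. The gene rows were not matched to the histone genes on counts above that limit. Of the 10 histone genes that averaged 100 or more, Hist1h2ap included, the interval did so for none. Over the whole set, 26 of 66 genes shared more than 50% of their windows and 7 shared none.

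By cluster, Hist1 held 391 TPM in replicate 1 and 536 TPM in replicate 2 (66.8% ± 2.74 of the total). Without Hist1h2ap its share was 46.3%, and by expected counts, which favour long transcripts, 43.7%. The Hist3 pair had 3643 counts in replicate 1 and 3201 in replicate 2, beside 3145 and 3241 for Hist1. In TPM the Hist3 pair held 157 and 175 TPM (24.2% ± 2.54), the 9 Hist2 genes 54.2 and 68.1 TPM (8.87% ± 0.175), and Hist4h4 0.0640% ± 0.017. The remaining Hist2 genes named by the rule were low: Hist2h2ac had 1.04 and 1.78 TPM and Hist2h2ab 0.57 and 0.58 TPM. Both Hist3 genes stood above the 1 TPM threshold in both libraries, as did 6 of 9 Hist2 genes and 21 of 54 Hist1 genes.

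Within Hist1 the genes fell into blocks separated by more than 100 kb. The first block, from Hist1h2bl to Hist1h2br (chr13:21715763-21837530), held 18 genes and 248 TPM in replicate 1 and 363 TPM in replicate 2, of which Hist1h2ap gave most. The second block (chr13:22035164-22043676) held 5 genes and 11.3 and 9.75 TPM. The third (chr13:23531050-23764406) held 28 genes and 132 and 163 TPM, led by Hist1h4d. Both larger blocks held high genes and genes with no assigned counts. In the first block those without counts, Hist1h2an, Hist1h2ao and Hist1h2br, each shared more than 50% of their windows with other genes. The pair Hist1h2ba and Hist1h2aa, both known from testis, formed a block of its own with no counts.

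**Figure D3:**
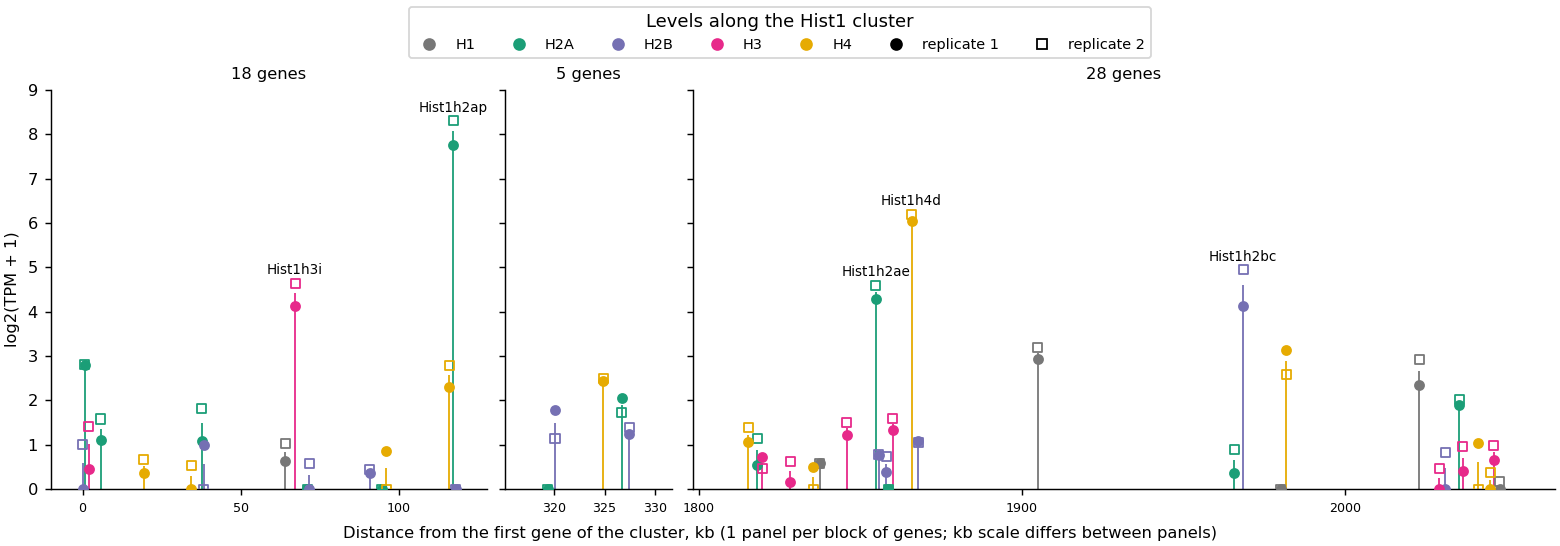
Level of the Hist1 genes as log2(TPM + 1) against distance from the first gene in kb, in 1 panel per block, coloured by histone type, with replicate 1 as filled circles and replicate 2 as open squares; lines run from 0 to the mean. The block of 2 genes with no counts and the outlying Hist1h2al are not drawn. Hist1h2ap at 216 and 317 TPM and Hist1h4d at 65.0 and 72.3 TPM rise above neighbours that are mostly near 1 TPM or below.

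Neighbouring H2A and H2B genes often start back to back. Here 12 such divergent pairs had start sites 176 to 306 bases apart. The H2A gene was the higher in both libraries in 5 pairs, and the H2B gene in 5. Some of these orders rest on a partner with 0 counts and mostly shared windows. Such partners were Hist1h2ao (92.65% shared), Hist1h2ah (87.9%) and Hist1h2ad (63.6%) among H2A genes, and Hist1h2br (86.4%) among H2B genes. How far the assignment of reads sets these orders was not tested. Hist1h2ap had 216 TPM in replicate 1 and 317 TPM in replicate 2 beside Hist1h2br with no counts. In the opposite sense, Hist1h2bc had 16.6 and 29.8 TPM beside Hist1h2ac with 0.29 and 0.86 TPM. The levels of the 2 partners had a Spearman rho of 0.109 over the 12 pairs, which share libraries and, in part, sequence with other pairs.

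**Figure D4:**
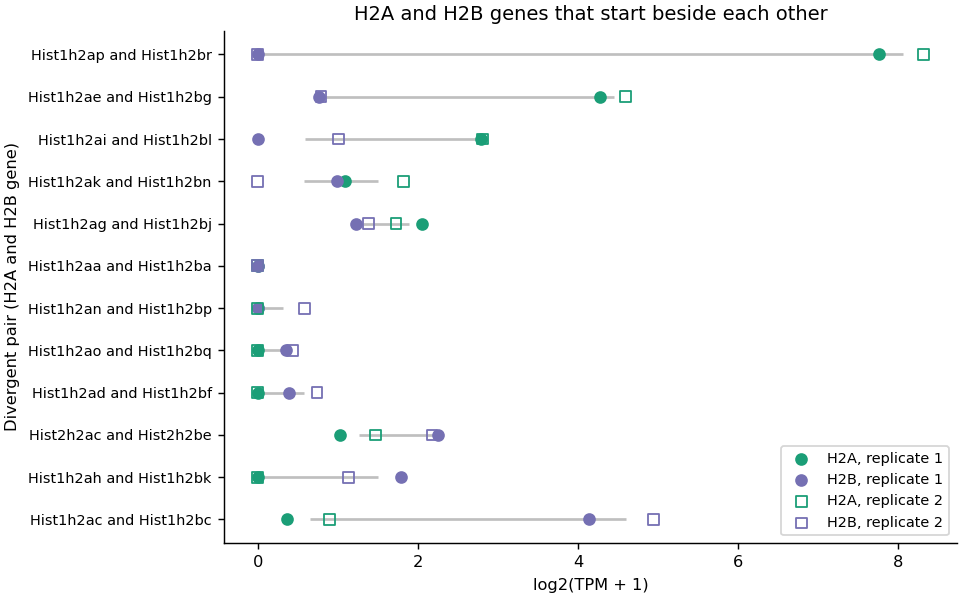
Levels of the H2A gene (green) and the H2B gene (purple) of 12 divergent pairs as log2(TPM + 1), with replicate 1 as filled circles and replicate 2 as open squares; lines join the means. The pairs run from Hist1h2ap at 216 and 317 TPM beside Hist1h2br at 0, to Hist1h2bc at 16.6 and 29.8 TPM beside Hist1h2ac at 0.29 and 0.86 TPM.

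Promoters bear on these pairs, because 1 stretch of DNA lies upstream of both genes. RefSeq promoter windows (GRCm38, from 250 bases before to 50 after the start) were found for 59 of the 66 genes and searched on both strands for the octamer ATTTGCAT, the TATA motif TATAAA and CCAAT. Adjacent letters of the octamer and CCAAT can overlap. Windows of a divergent pair overlap, so their matches are not separate. Capitals mark the matches in the windows of the highest H2A gene, the highest H2B gene and Hist1h2ae, whose window is shared with Hist1h2bg.
Hist1h2ap, chr13:21833426-21833725, minus strand: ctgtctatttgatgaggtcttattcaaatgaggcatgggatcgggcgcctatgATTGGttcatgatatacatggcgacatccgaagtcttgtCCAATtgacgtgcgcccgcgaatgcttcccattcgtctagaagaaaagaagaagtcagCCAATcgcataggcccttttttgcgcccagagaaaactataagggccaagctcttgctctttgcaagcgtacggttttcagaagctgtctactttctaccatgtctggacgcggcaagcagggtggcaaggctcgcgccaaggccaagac
Hist3h2ba, chr11:58948661-58948960, plus strand: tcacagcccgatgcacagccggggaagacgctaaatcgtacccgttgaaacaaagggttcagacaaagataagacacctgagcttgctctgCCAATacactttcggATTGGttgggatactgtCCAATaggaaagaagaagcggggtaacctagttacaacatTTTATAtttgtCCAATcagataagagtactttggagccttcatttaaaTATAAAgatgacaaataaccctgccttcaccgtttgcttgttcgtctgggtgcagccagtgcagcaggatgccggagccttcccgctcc
Hist1h2ae, chr13:23571171-23571470, minus strand: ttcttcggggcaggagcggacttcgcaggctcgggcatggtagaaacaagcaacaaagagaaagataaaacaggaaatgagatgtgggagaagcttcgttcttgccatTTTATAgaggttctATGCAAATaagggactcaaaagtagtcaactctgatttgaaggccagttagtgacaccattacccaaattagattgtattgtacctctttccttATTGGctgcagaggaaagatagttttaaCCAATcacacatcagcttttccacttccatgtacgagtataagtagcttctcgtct
The octamer was present for 12 of 59 genes (20.3%), 7 of them H2A and 5 H2B, against 1.74% of 32851 RefSeq promoters. TATAAA was present for 35 of 59 (59.3%), against 13.6%. CCAAT was present for 50 of 59 (84.7%), against 37.4%, and for 3 of 12 H4 genes. Hist1h2ae and Hist1h2bg share the octamer match and 1 TATA match, which lies on opposite strands relative to the 2 genes. Their levels were 18.4 and 23.2 TPM for Hist1h2ae and 0.70 and 0.73 TPM for Hist1h2bg.

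Some histone genes are annotated with longer messages. By the lengths in the deposited tables, transcripts over 1000 bases numbered 14 of 71 and carried 13.1% of the summed TPM in replicate 1 and 12.5% in replicate 2. Hist3h2a, with a transcript of 2146 bases in which 1643 follow the stem-loop, made up most of this: without it the share was 2.50%. Of its windows, 29.8% were shared with the overlapping gene Trim17, which stood at 0.65 and 1.24 TPM. By those lengths the next highest genes were Hist1h1c, Hist2h2be and Hist2h4, each under 7 TPM in both libraries. The later M21 models are longer: 21 of the 71 transcripts then exceed 1000 bases, Hist1h4d (1138 bases), Hist1h2bc (1156 bases) and Hist1h1e (1930 bases) among them, and the share is 28.1% in replicate 1 and 27.1% in replicate 2. How many reads lay beyond the stem-loop was not analysed here.

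Where the M21 transcript had the same length as in the deposited tables, the place of the stem-loop could be set beside the level. This covered 49 of 71 transcripts. Those with the stem-loop within 100 bases of the end held 56.9% of their TPM in replicate 1 and 60.8% in replicate 2. Most of it came from Hist1h2ap, in which 3 bases follow the stem-loop. In Hist2h2aa1 and Hist2h2aa2 35 bases follow it. Transcripts that run more than 100 bases past it held 35.5% and 30.6%, led by Hist3h2ba and Hist3h2a. Those with no match held 7.60% and 8.67%. Without Hist1h2ap, whose read split is uncertain, the shares turned round: 21.9% and 21.2% for a stem-loop near the end, against 64.4% and 61.4% for transcripts that run past it.

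Replacement histones stood far above the replication-dependent genes in the H3 family. By expected counts, not scaled by length, the replication-dependent share was 0.274% on average, against 0.834% by TPM. The labels name a Smart-seq protocol, and whether messages with and without a poly(A) tail were captured alike was not tested. Replication-dependent genes gave 0.647% of H3 family TPM in replicate 1 and 1.02% in replicate 2, beside H3f3a at 2649 and 2547 TPM and H3f3b at 1466 and 1647 TPM. They gave 23.3% and 25.8% of the H2A family and 19.6% and 13.1% of the H1 family, in which H1f0 had 32.4 and 92.3 TPM.

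The libraries were compared through counts scaled by TMM, a method that centres the median gene near 0 (0.00 on the log2 scale over 17623 genes). The summed histone counts had a ratio of 0.841 for replicate 1 over replicate 2 (exact 95% counting interval 0.814 to 0.869), so they were lower in replicate 1. Over the 29 genes averaging 10 counts or more, the median log2 ratio was -0.19, with 12 ratios above 1 and 17 below. These are not the same 29 genes as those above 1 TPM: Hist4h4 is among them. Under spike-in scaling the log2 ratios shift by -0.54, slightly less at low counts, the all-gene median included, and only Hist1h4c, Hist1h2bk, Hist2h2aa1 and Hist2h3c1 keep a ratio above 1.

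Of these 29 genes, 4 passed 1.5-fold with replicate 1 higher (Hist2h2aa1, Hist1h2bk, Hist2h3c1 and Hist1h4c), as did 8.44% of 17623 gene rows. Another 4 passed it with replicate 2 higher (Hist1h1c, Hist2h2ac, Hist1h2bc and Hist2h3b), as did 10.8% of gene rows. On the deposited intervals, none of 29 was higher in replicate 1 without overlap (9.38% of gene rows) and 5 were higher in replicate 2 (23.2% of gene rows), namely Hist1h1c, Hist1h2ap, Hist3h2a, Hist1h2bc and Hist2h3b. In a set of 29 genes, each of these counts is within a few genes of its background share.

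Of the 10 genes averaging 100 counts or more, Hist1h2bc had the ratio farthest from 1, with 214 counts in replicate 1 and 284 in replicate 2 and a ratio of 0.594 (0.495 to 0.711). Hist1h1c had 121 and 145 counts and a ratio of 0.657 (0.512 to 0.843). Hist2h2aa2 had a ratio of 0.722 (0.603 to 0.863), Hist1h2ap 0.728 (0.681 to 0.778) and Hist1h3i 0.739 (0.560 to 0.973). All 5 were lower in replicate 1 beyond counting error by TMM. Spike-in scaling lowers every ratio, so it could not change this direction. The share of all gene rows beyond counting error was not computed. Counting error leaves out the split of reads between copies. All windows of Hist2h2aa2, 92.2% of those of Hist1h2ap and 68.6% of those of Hist1h3i were shared. The share was 25.35% for Hist1h2bc and 5.07% for Hist1h1c. In the other direction and below that count limit stood Hist2h2aa1, with 124 and 54 counts and a ratio of 1.81 (1.30 to 2.54), but the sum with its copy Hist2h2aa2 had a ratio of 0.907 (0.778 to 1.06).

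The other leading genes had ratios nearer to 1 by TMM. Hist3h2ba had a ratio of 1.05 (0.952 to 1.16), Hist1h4d 0.959 (0.824 to 1.12), Hist2h4 1.03 (0.759 to 1.40) and Hist2h2be 1.14 (0.912 to 1.44), and each interval included 1. Under spike-in scaling Hist3h2ba, Hist2h4 and Hist2h2be turned to below 1. Hist3h2a had a ratio of 0.852 (0.806 to 0.900) and Hist1h2ae 0.844 (0.657 to 1.09), and the Hist3h2a interval excluded 1. Under spike-in scaling Hist1h4d, Hist3h2a and Hist1h2ae passed 1.5-fold with replicate 2 higher. Their log2 ratios were -0.60, -0.78 and -0.79, against an all-gene median of -0.54. Of the lowly counted genes, Hist2h3b had 33 and 54 counts and a ratio of 0.481 (0.302 to 0.756), and Hist2h3c1 had 20 and 6 counts and a ratio of 2.63 (1.02 to 7.99). As 1 sum, the 3 Hist2 H3 genes had a ratio of 0.700 (0.492 to 0.994).

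**Figure D5:**
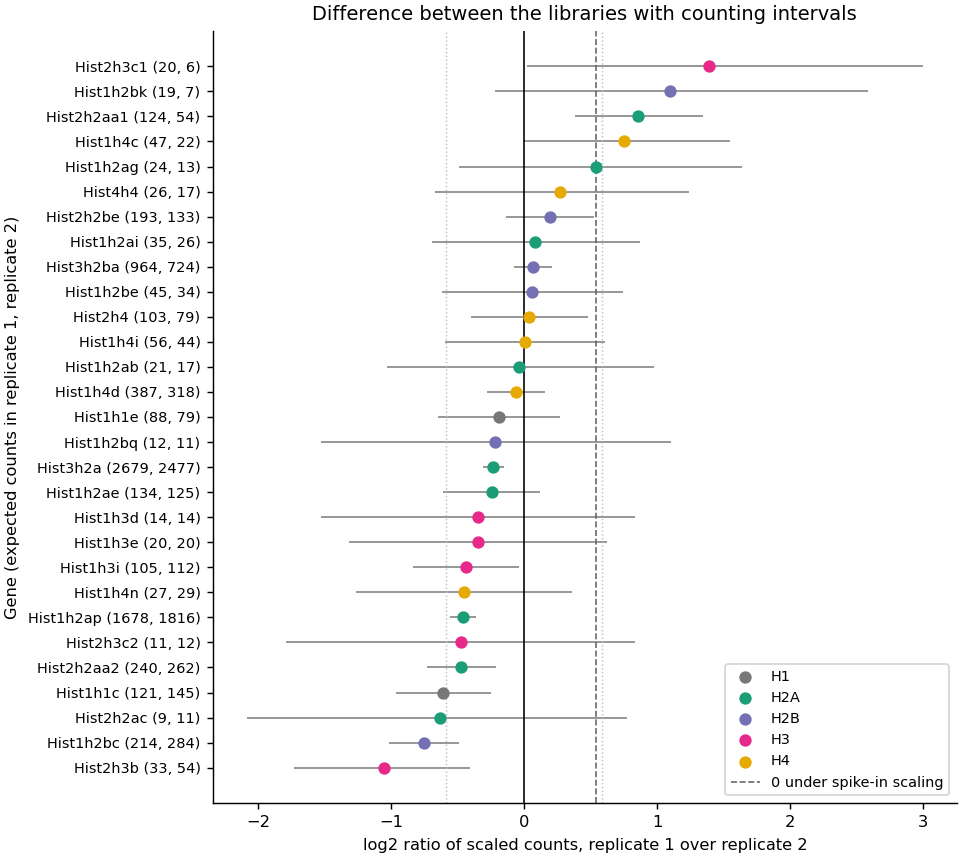
Log2 ratio of scaled counts, replicate 1 over replicate 2, for the 29 genes that average 10 counts or more, coloured by histone type, with exact 95% counting intervals as lines and the counts of replicate 1 and replicate 2 in brackets. Dotted lines mark 1.5-fold and the dashed line the place of 0 under spike-in scaling. The best-counted genes, such as Hist3h2a at 0.852 and Hist3h2ba at 1.05, have the shortest intervals, and genes far from 0 mostly have wide ones.

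Genes of the wider histone cycle were set beside these ratios. Of 27 genes for histone transcription and histone RNA processing, 25 reached 1 TPM in both libraries and the median log2 ratio was 0.02. Slbp had 98.0 TPM in replicate 1 and 96.1 TPM in replicate 2. Dhx9, a helicase, was at least 1.5-fold higher in replicate 1 (32.5 and 21.6 TPM). The cell cycle regulators E2f1 (0.73 and 1.47 TPM) and Cdk2 (6.34 and 12.3 TPM) both passed 1.5-fold with replicate 2 higher. The transcriptional coactivator Npat, which drives histone genes in S phase, had 10.9 and 11.9 TPM.

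Of 26 DNA replication genes, Mcm10 alone passed 1.5-fold, with replicate 2 higher, and the median log2 ratio was -0.17. Of 12 mitosis genes, 6 passed 1.5-fold, all with replicate 2 higher (10.8% of gene rows did so), and the median log2 ratio was -0.57. Several marker lists moved with the summed histone counts: replicate 2 was the higher past 1.5-fold in all 5 meninges and fibroblast markers, all 5 sensory ganglion markers and 4 of 5 microglia markers (median log2 ratio -0.74). The median was -0.44 over the 6 progenitor markers and 0.28 over the 6 erythroid markers. Of the progenitor markers, 1 passed 1.5-fold, with replicate 2 higher, and Pax6 and Fabp7 had ratios of 1.03 and 1.04. The part of these tissues in the histone ratios was not tested.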

How the data were processed

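Total RNA was measured in 2 libraries of 1 group. The labels name mirVana extraction and a Smart-seq protocol. The genome was mm10 and the annotation GENCODE M4, according to the deposited texts. Not given in the sources used here are the aligner, quantifier and strand setting. Per the file headers, the authors' expected counts are model-based read estimates that were left unnormalised. The deposited TPM values have 1 common sum over all rows, spike-ins included. The deposited FPKM values divide by length and library depth, per the file headers. In the deposited percent columns stands each transcript's share of its gene. The deposited score columns hold the bounds of the TPM intervals.

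Symbols came from GENCODE M21 by identifier without version (42462 of 43346 gene rows matched), and coordinates are 1-based from that release. Hist2h2bb, Hist1h2bm and Hist1h2bh had no matched row and were not analysed here. The members, lists and tests were chosen with earlier results of these data known. Genes named are the 4 highest of each type, every Hist2, Hist3 and Hist4 gene, the 5 largest ratios either way among genes averaging 100 counts or more, and genes with no counts. Other genes were named after their values were seen.

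Counts were rounded. Ratios used TMM library sizes from edgeR 4.0.16 (R 4.3.3), a prior count of 0.5 for log2 values, and a mean count of at least 10. Ratios with intervals carry no prior count. Intervals are exact (Clopper-Pearson, 95%) on each pair of counts. DESeq2 1.42.0 gave an alternative scaling. Shared sequence was counted in windows of 100 bases. Other steps used Python 3.11.15 with pandas 2.3.3, SciPy 1.17.1 and matplotlib 3.10.9. The ratio step was tested on simulated data. Alternatives covered thresholds, units, scaling, filters and each library alone.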

Additional observations from a re-analysis of the deposited data

How the results depend on the processing

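No paired analysis was possible because there was only 1 group of 2 libraries. No value past its threshold reversed. Of the 29 single-gene ratios, 8 that lay above 1 fell below it under spike-in scaling, none of them past 1.5-fold by TMM; there 12 genes newly passed 1.5-fold and 3 no longer did. Under DESeq2 and total-count scaling all 29 kept their side of 1.5-fold, and by deposited TPM 28 did. FPKM in place of TPM gave a sum of 407. Expected counts, not per length, gave shares of 3.17% for H1, 67.1% for H2A, 3.23% for H3, 8.17% for H4, 43.7% for the Hist1 cluster and 0.274% of the H3 family. Spike-in scaling gave a ratio of summed counts of 0.577 and a median log2 ratio of -0.73. It put 1 and 16 genes past 1.5-fold with replicate 1 and replicate 2 higher. Deposited TPM gave a ratio of 0.774. Under spike-in scaling the all-gene median log2 ratio was -0.54. Shares of all gene rows past a fold limit were computed only for 1.5-fold by TMM with a mean count of at least 10. With no count filter, 8 and 21 genes were past 1.5-fold; with a mean count of at least 100, 0 and 2; and past 2-fold, 2 and 1. Each library alone gave 30 to 33 genes at 1 TPM, 603 to 779 summed TPM, and shares of 59.0% to 62.9% for H2A, 64.9% to 68.8% for Hist1, 12.5% to 13.1% for transcripts over 1000 bases and 0.647% to 1.02% of the H3 family. The H1, H2B, H3 and H4 shares ranged over 1.96% to 2.11%, 17.3% to 19.9%, 4.44% to 5.55% and 12.1% to 14.7%. Some alternatives were chosen after seeing the data. Without Hist1h2ap the sum was 424.6 TPM, the ratio 0.880, and the shares 3.31% for H1, 36.8% for H2A, 30.1% for H2B, 8.14% for H3, 21.7% for H4 and 46.3% for Hist1. Without Hist3h2a, long transcripts held 2.50%, and by M21 lengths 27.6%. Without genes sharing more than 50% of their windows, 18 reached 1 TPM. The causes of these shifts were not tested, apart from the length scaling and gene removal that the alternatives consist of. Depth limits the 37 genes with a mean count under 10, whose ratios are not resolved.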

Other observations

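Hist3h2bb-ps, an H2B pseudogene of the Hist3 cluster that the symbol rule leaves out, had 1.48 TPM in replicate 1 and 1.00 TPM in replicate 2, from 11 and 5 counts.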
